A study of Mus musculus with 6 samples.

Results

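Edf1 and 9 genes of the ribosome collision response were followed in mouse ependymal cell cultures that carried an Edf1 knockout and in their wild-type (WT) counterparts. The 10 genes were chosen by symbol, as factors that sense collided ribosomes, repress translation or rescue ribosomes. Earlier results of these data were known when they were chosen. All 10 were found among the 22851 gene symbols of the deposited read count table. The cells were radial glia, the progenitors that line the newborn ventricle, taken from C57BL/6J pups at postnatal days 0 to 3. They were grown with 10% serum and then kept without serum for 6 days, which turns them into multiciliated ependymal cells. The WT and Edf1 KO groups had 3 libraries each, described by the submitters as biological replicates. Edf1 KO cells came from mice made with CRISPR/Cas9. The position of the edit, the number of founder lines and any pooling of pups are not given in the sources used here.

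When a ribosome stalls on an mRNA, the ribosome behind runs into it, and the joined pair is the signal that the collision response reads. The ubiquitin ligase ZNF598, encoded by Zfp598 in the mouse, marks small subunit proteins of collided ribosomes, and a helicase complex of ASCC3, ASCC2 and TRIP4 then pulls the leading ribosome apart. EDF1 binds at the collision and helps to bring in GIGYF1 or GIGYF2 with the cap-binding protein EIF4E2, which block new initiation on the faulty mRNA. PELO and HBS1L rescue ribosomes that have stopped at the end of a broken mRNA. EDF1 is also known as a transcriptional coactivator.

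The libraries held 13071766 to 28087006 counts, and a library's level for a gene is given as CPM, the usual depth-normalised count, on TMM-scaled library sizes. Of 14243 genes with enough counts to test, 3833 passed edgeR's quasi-likelihood test between the genotypes (threshold 0.05 after adjustment), which is 26.9% (12.7% higher and 14.2% lower in the knockout). The first principal component of log2 CPM held 60.7% of the variance and separated the genotypes, and the second (16.1%) set WT replicate 2, the library with the fewest counts, apart from the other 2 WT libraries. On the first component WT replicate 2 also lay furthest from the knockout libraries, at -32.45, against -18.14 for each of the other 2 WT libraries. The knockout libraries lay at 20.55 to 24.31. All 10 ependymal markers examined were called lower in the knockout, with a summed level of 1520 to 1700 CPM in WT libraries, against 926 to 976 CPM in knockout libraries. The summed level of 8 microglia markers was 866 to 909 CPM in WT libraries, against 559 to 592 CPM in knockout libraries, with 7 of 8 called lower. For 8 fibroblast and mural markers it was 564 to 605 and 726 to 812 CPM, with all 7 tested genes called higher and Rgs5 too low to test. Most of that sum was Acta2, at 459 to 496 CPM in WT libraries and 564 to 608 CPM in knockout libraries. The log2 fold change of Acta2 (0.30) was the smallest of the 7, whose median was 0.815. Of 4 endothelial markers, Pecam1, Cdh5 and Cldn5 were too low to test, while Kdr rose from 34.4 to 39.9 CPM in the WT libraries to 124 to 128 CPM in the knockout libraries. Of 8 radial glia and astrocyte markers 2 were called higher and 1 lower, and of 5 tested neuronal markers 2 were called lower. Both of the latter were low, with Tubb3 at 3.29 to 6.91 CPM and Dcx at 0.246 to 0.865 CPM over all libraries. The more abundant Map2 and Stmn2 did not pass (log2 fold changes -0.10 and -0.07), nor did Rbfox3 (-0.61). The summed level of 6 oligodendrocyte lineage markers was 111 to 121 CPM in WT libraries and 119 to 131 CPM in knockout libraries. In bulk RNA, fewer cells of a type and less RNA per cell cannot be told apart.

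Edf1 lies on chromosome 2 at 25557847 to 25562082 on the plus strand (GRCm38, GENCODE M21) and has 5 exons. Its coding sequence has 447 bases, 148 codons and a stop, and spans chr2:25557952-25561912 with its introns. The first 300 coding bases, joined across exons, are shown because much of this sequence also occurs in a processed pseudogene. Capitals mark bases that lie in a stretch of at least 31 bases also found in an annotated pseudogene transcript, and lower case marks the rest.

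Edf1: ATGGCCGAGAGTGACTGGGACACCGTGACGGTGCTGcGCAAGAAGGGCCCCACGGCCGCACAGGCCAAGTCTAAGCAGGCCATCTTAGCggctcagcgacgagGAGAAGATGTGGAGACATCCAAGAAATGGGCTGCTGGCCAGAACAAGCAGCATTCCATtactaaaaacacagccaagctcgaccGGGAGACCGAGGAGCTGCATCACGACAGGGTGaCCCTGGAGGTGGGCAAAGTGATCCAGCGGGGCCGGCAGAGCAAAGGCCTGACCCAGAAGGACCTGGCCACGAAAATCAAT

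Capitals cover 258 of the 300 bases shown and 360 of all 447 coding bases. Nearly all of these stretches come from Gm11964, a processed pseudogene on chromosome 11 (5634139 to 5634582) that the table also counts, and Gm12274 shares only 2 stretches of 31 bases. Over the whole Edf1 transcript, UTRs included, 23.3% of the 31-base stretches are shared with either pseudogene. How reads that fit both were assigned is not given in the sources used here.

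Edf1 itself was strongly reduced. Its raw counts were 2193, 1105 and 1483 in WT replicates 1, 2 and 3 and 160, 196 and 373 in the knockout replicates. In CPM these were 82.6, 85.9 and 80.2 in WT libraries, against 9.84, 10.9 and 13.2 in knockout libraries, so the groups stood far apart and the highest knockout library was well under the lowest WT library. The knockout mean was 13.7% of the WT mean, with a log2 fold change of -2.85 (SE 0.091, 95% interval -3.05 to -2.65) and edgeR adjusted p = 5.46e-09. The remaining signal was well above the counting floor, since 3 counts correspond to at most 0.184 CPM in a knockout library. Gene-level counts do not locate these reads, so a truncated transcript and a complete one cannot be told apart.

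The pseudogene Gm11964, examined after its values were seen, had 18, 8 and 6 counts in the WT libraries and 0 counts in each knockout library. Each of those zeros allows up to 3 counts. It stayed below the filter and has no test. Reads assigned to the pseudogene were thus seen in WT libraries only, at far lower counts than those of Edf1.

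Per kilobase of exon, Edf1 was the most abundant of the 10 transcripts in WT cells. Its level per length was 115 ± 3.95 CPM per kb in WT, above 96.0% of tested genes, and 15.7 ± 2.38 CPM per kb in the knockout, above 67.1% (SD, n = 3). In the knockout it therefore ranked among its partners instead of far above them. In WT cells the partners followed in the order Hbs1l (20.3 ± 0.457 CPM per kb), Pelo (17.1 ± 0.667), Gigyf2 (17.0 ± 1.46), Zfp598 (12.9 ± 0.495), Trip4 (10.1 ± 0.409), Eif4e2 (8.12 ± 0.448), Ascc2 (6.81 ± 0.565), Gigyf1 (6.45 ± 0.398) and Ascc3 (4.90 ± 0.587). Pelo and Gigyf2 did not differ beyond their spread, nor did Ascc2 and Gigyf1. These levels per length used the union of exons of the GENCODE basic transcripts, and the place of Eif4e2 depends on that choice. With the longest transcript of the full annotation in its place, which can hold retained introns and be longer, Edf1 stood at 91.1 CPM per kb in WT and 12.4 CPM per kb in the knockout. By that length Hbs1l stood at 35.8 CPM per kb in WT and Eif4e2 at 17.5 CPM per kb, near Pelo and Gigyf2.

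The 9 partners of Edf1 did not follow it. None of the 9 passed edgeR's quasi-likelihood test after adjustment, against 26.9% of all tested genes, and their adjusted p-values ran from 0.0896 to 0.973. DESeq2 and limma voom also called 0 of the 9, but Trip4 passed in 3 other alternatives, described below. At an unadjusted p under 0.05 there were 2, Ascc2 and Trip4, against 38.4% of tested genes with an annotated length. The libraries of the genotypes did not overlap for 3 of the 9 (Ascc2, Trip4 and Hbs1l), against 43.3% of tested genes. The fits were precise for these genes: each had 359 to 3059 counts in every library, SEs were 0.053 to 0.085 on the log2 scale, and the 95% intervals of all 9 lay between -0.31 and 0.35. These bounds correspond to 0.807 and 1.27 times the WT level. The median log2 fold change of the 9 was 0.011, beside 0.0029 for all tested genes. Together the 9 partners summed to 497 to 520 CPM in the WT libraries and to 501 to 529 CPM in the knockout libraries, ranges that overlap.

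**Figure D1:**
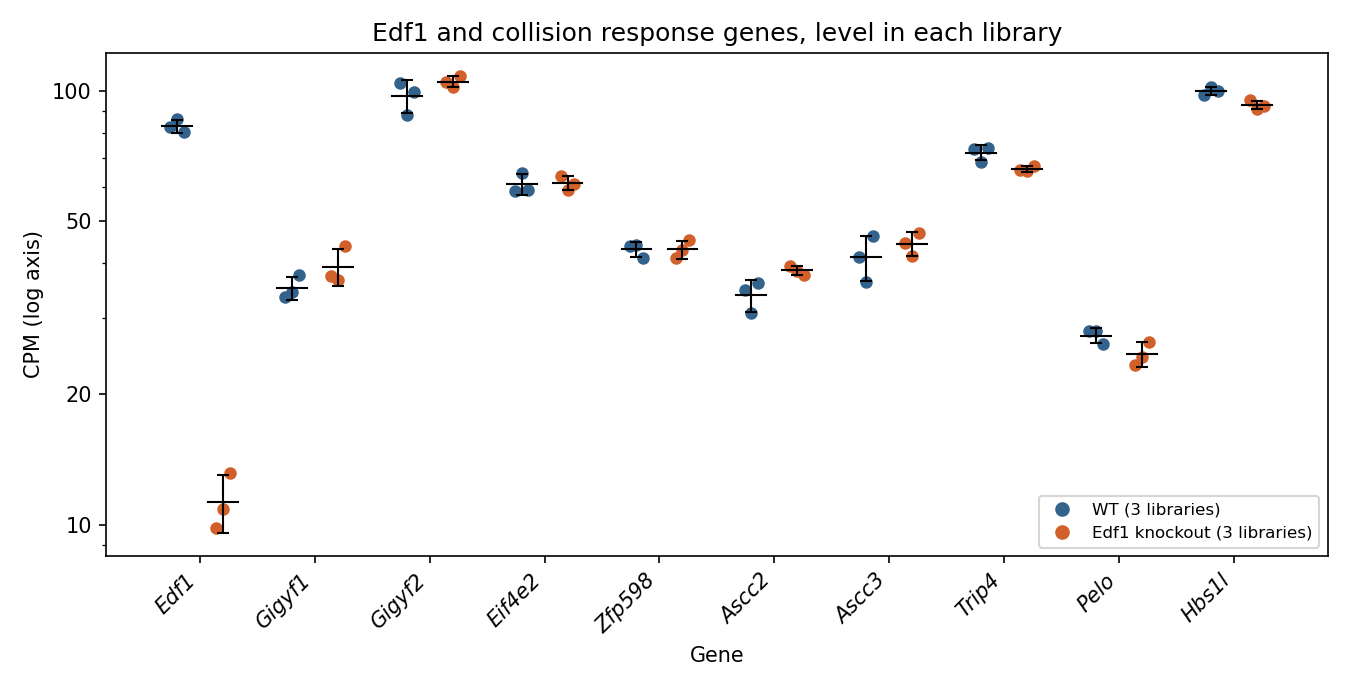
Level of Edf1 and the 9 other genes in each library, in CPM on a log axis; points are the 3 WT and 3 Edf1 knockout libraries, and bars give the mean and SD. Edf1 falls from 80.2 to 85.9 CPM in WT to 9.84 to 13.2 CPM in the knockout, while the other genes stay near their WT level.

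The translation repressors were examined next. Gigyf2, a scaffold of the cap-binding repressor, had 104, 88.0 and 99.1 CPM in WT libraries, against 105, 102 and 108 CPM in knockout libraries. The groups overlapped through WT replicate 1, and the lowest value was that of WT replicate 2. The log2 fold change was 0.11 (SE 0.066, edgeR adjusted p = 0.254), and it was 0.045 without WT replicate 2 and 0.167 without WT replicate 1. Its paralog Gigyf1 had 33.5, 34.3 and 37.6 CPM in WT libraries, against 37.5, 36.7 and 43.8 CPM in knockout libraries. Knockout replicate 3 alone lay clearly above WT, and the log2 fold change of 0.17 (SE 0.083, edgeR adjusted p = 0.155) was 0.082 without it. Eif4e2, the cap-binding subunit that competes with the initiation factor EIF4E, had 58.7, 64.7 and 59.2 CPM in WT libraries, against 63.6, 59.1 and 60.9 CPM in knockout libraries. The 2 sets of values interleaved, with a log2 fold change of 0.011 (SE 0.061, 95% interval -0.12 to 0.14, edgeR adjusted p = 0.913).

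The proportions within the repressor were also compared, since a ratio of reads inside a library does not depend on scaling. The Gigyf1 to Gigyf2 read ratio was 0.321, 0.389 and 0.379 in WT libraries, against 0.358, 0.360 and 0.404 in knockout libraries. The Gigyf2 to Eif4e2 ratio was 1.61 ± 0.219 in WT and 1.72 ± 0.0654 in the knockout, and the Gigyf1 to Eif4e2 ratio was 0.578 ± 0.0530 and 0.643 ± 0.0675 (SD, n = 3). In all 3 ratios the genotypes overlapped. Eif4e2 and Gigyf2 are also neighbours in the genome: both lie on the plus strand of chromosome 1, with Eif4e2 at 87213914 to 87240488 and Gigyf2 starting 86.5 kb further on at 87326998. Efhd1, a gene of the table that lies between them (examined after its values were seen), fell from 7.57 to 8.86 CPM in the WT libraries to 4.85 to 5.29 CPM in the knockout libraries (log2 fold change -0.71, edgeR adjusted p = 0.00153). Its change was not shared by either flanking gene at the threshold.

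Zfp598, the collision-sensing ubiquitin ligase, was the least variable of the 10 genes. It had 44.0, 44.1 and 41.2 CPM in WT libraries, against 41.2, 43.0 and 45.2 CPM in knockout libraries. Both groups averaged 43.1 CPM, with a log2 fold change of 0.004 (SE 0.065, 95% interval -0.14 to 0.15, edgeR adjusted p = 0.973). Its coefficient of variation over the 6 libraries was 3.85%, against a median of 10.2% over tested genes.

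**Figure D2:**
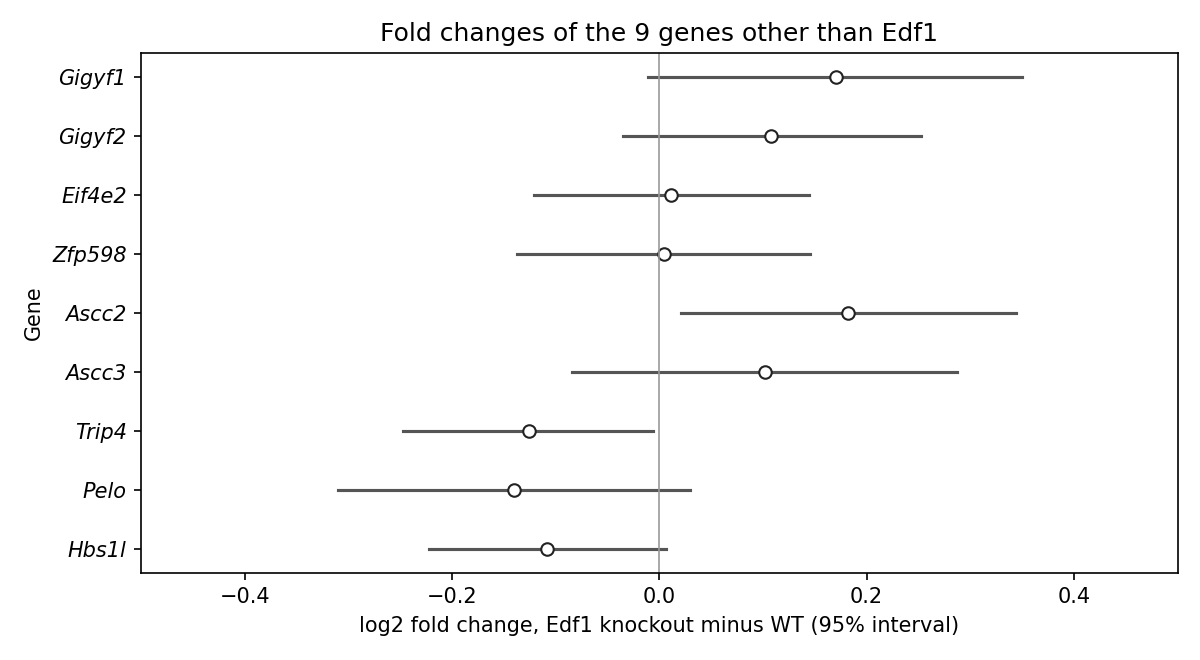
Log2 fold change of the 9 genes other than Edf1, knockout minus WT, with 95% intervals from edgeR's quasi-likelihood fit. All intervals lie between -0.31 and 0.35, and those of Ascc2 and Trip4 do not reach 0 before adjustment over all genes.

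Ascc2 and Trip4, of the ribosome-splitting complex, were the partners with an unadjusted p under 0.05, and their values shifted in opposite directions. Ascc2, which encodes its ubiquitin-binding subunit, had 34.7, 30.7 and 36.1 CPM in WT libraries, against 39.5, 38.5 and 37.7 CPM in knockout libraries. Every knockout library was above every WT library, as was the case for 21.3% of tested genes. The log2 fold change of 0.18 (SE 0.074, 95% interval 0.02 to 0.34) did not pass the threshold (edgeR adjusted p = 0.0896). Trip4, which encodes a zinc finger subunit, had 73.4, 68.6 and 73.9 CPM in WT libraries, against 65.6, 65.3 and 67.1 CPM in knockout libraries. Every knockout library was below every WT library, as was the case for 22.1% of tested genes. Its log2 fold change of -0.13 (SE 0.056, 95% interval -0.25 to -0.01) did not pass either (edgeR adjusted p = 0.114). It passed without WT replicate 2 (-0.16, edgeR adjusted p = 0.0219) and after a correction of each library for GC content and transcript length (-0.23, edgeR adjusted p = 0.00287). Ascc3, the helicase, had 41.5, 36.3 and 46.2 CPM in WT libraries, against 44.7, 41.6 and 47.1 CPM in knockout libraries. Those ranges overlapped, with a log2 fold change of 0.10 (SE 0.085, edgeR adjusted p = 0.418) that was -0.016 after the same correction. It was 0.028 without WT replicate 2, 0.059 without knockout replicate 3 and 0.187 without WT replicate 3.

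Within libraries, the ratio of Ascc2 to Trip4 reads was 0.472, 0.447 and 0.489 in WT libraries, against 0.603, 0.590 and 0.561 in knockout libraries. Every knockout library was higher. The ratio of Trip4 to Ascc3 reads was 1.75 ± 0.146 in WT and 1.49 ± 0.0744 in the knockout, with every knockout library lower, while that of Ascc2 to Ascc3 overlapped (0.821 ± 0.0340 and 0.870 ± 0.0640; SD, n = 3). With 3 libraries against 3, the two-sided exact permutation test of a ratio cannot give a p under 0.1. The Ascc2 to Trip4 and Trip4 to Ascc3 ratios reached that value, and over the 7 ratios compared their adjusted exact permutation p was 0.35. No ratio was recomputed under the correction for GC content and transcript length.

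Ascc1, the remaining gene of the activating signal cointegrator complex and no part of the ribosome-splitting trimer, behaved differently from the other subunit genes. It had 117, 130 and 108 CPM in WT libraries, against 60.9, 54.3 and 60.1 CPM in knockout libraries. Every knockout library lay far below every WT library. The log2 fold change was -1.01 (SE 0.074, 95% interval -1.17 to -0.85), with edgeR adjusted p = 1.41e-06. Ascc1 (chromosome 10, 60002805 to 60099988, plus strand) starts head to head with Anapc16, and their exons do not overlap in the basic annotation. Anapc16, examined after its values were seen, had 62.5, 65.8 and 56.4 CPM in WT libraries, against 52.1, 56.4 and 60.5 CPM in knockout libraries, so its groups overlapped. The summed level of the ependymal markers moved in the same direction as Ascc1, and its part in the Ascc1 result was not tested.

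**Figure D3:**
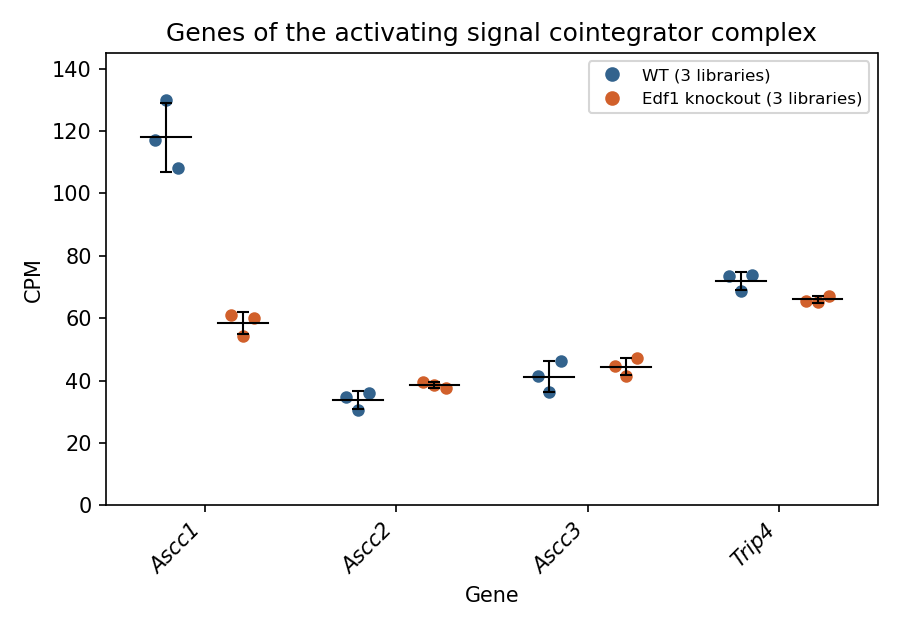
Levels of Ascc1, Ascc2, Ascc3 and Trip4 in CPM on a linear axis; points are libraries, and bars give the mean and SD of 3 WT and 3 knockout libraries. Ascc1 stands at 108 to 130 CPM in WT libraries, against 54.3 to 60.9 CPM in knockout libraries, while the other 3 genes shift by much less.

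The rescue pair had slightly lower values in the knockout without passing the test. Hbs1l, the GTPase of the pair, had 97.5, 102 and 100 CPM in WT libraries, against 95, 90.9 and 92.0 CPM in knockout libraries. The groups did not overlap, and the log2 fold change was -0.11 (SE 0.053, 95% interval -0.22 to 0.006, edgeR adjusted p = 0.153). Of the 31-base stretches of its longest transcript, 22.7% also occur in other annotated genes, chiefly Gm9923, so part of its reads may be assigned to a copy. Pelo, which recognises the empty ribosomal A site, had 27.9, 27.9 and 26.1 CPM in WT libraries, against 23.3, 24.3 and 26.4 CPM in knockout libraries. Knockout replicate 3 reached into the WT range, and the log2 fold change was -0.14 (SE 0.078, 95% interval -0.31 to 0.03, edgeR adjusted p = 0.213). The ratio of Pelo to Hbs1l reads was 0.273 ± 0.0132 in WT and 0.267 ± 0.0211 in the knockout (SD, n = 3), with overlapping libraries.

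Counts of Pelo are uncertain, since 62.9% of its 31-base stretches also occur in another annotated gene. Pelo (chromosome 13, 115088355 to 115090186, minus strand) lies inside Itga1 on the same strand, and 67.1% of its exonic bases overlap exons of Gm49395 on its own strand or of Gm10734 on the other strand. Itga1, which encodes a collagen-binding integrin, rose from 33.2 to 46.0 CPM in the WT libraries to 54.5 to 56.2 CPM in the knockout libraries (log2 fold change 0.44, edgeR adjusted p = 0.00393). Its exons do not overlap those of Pelo in the basic annotation, and whether reads of its introns entered the Pelo counts was not tested. For the 7 partners other than Pelo and Hbs1l, at most 2.18% of 31-base stretches occur in another gene, and none has exons that overlap those of another gene in the basic annotation.

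The profile of Edf1 over the 6 libraries was most closely followed by 3 genes outside the 10. By Euclidean distance between centred log2 CPM values they were Ighm (distance 1.09), Crip3 (1.28) and Gpr34 (1.36). Ighm, an immunoglobulin heavy chain gene, had 14.9 to 17.8 CPM in WT libraries, against 3.01 to 4.6 CPM in knockout libraries. Crip3 had 35.1 to 43.5 and 8.58 to 12.1 CPM, and the microglial receptor gene Gpr34 had 39.4 to 39.8 and 10.3 to 12.5 CPM. All 3 were lower in every knockout library than in any WT library, which their choice by likeness to Edf1 largely fixed. Their log2 fold changes were -2.04, -1.85 and -1.78, against -2.85 for Edf1. Gpr34 is one of the 8 microglia markers, whose summed level was lower in the knockout, and the part of that difference in these profiles was not tested.

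Another 45 genes of collision signalling and ribosome quality control were measured in the same fit, and all 45 could be tested. Of these, 6 were called higher and 7 lower in the knockout by edgeR, and the other 32 did not pass. Their median log2 fold change was 0.003. Apart from the early response genes, 1 of 38 was called higher and 7 lower, against 12.7% and 14.2% of all tested genes. The lists were chosen with earlier results of these data known. The share called in each list below is therefore a description, and how the choice bears on it was not tested.

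Among the 5 genes that carry collision signals to kinases, 1 passed, a share near the 26.9% of all tested genes. Map3k20, which encodes the stress kinase ZAK that is activated on collided ribosomes, had 18.3, 13.6 and 17.4 CPM in WT libraries, against 23.8, 22.7 and 22.6 CPM in knockout libraries. All knockout libraries were above WT, with a log2 fold change of 0.47 (SE 0.102, edgeR adjusted p = 0.00474). Eif2ak4, which encodes the kinase GCN2, had 42.6 ± 1.05 CPM in WT libraries, against 42.8 ± 1.63 CPM in knockout libraries (SD, n = 3; log2 fold change 0.003, 95% interval -0.13 to 0.14). Its coactivator Gcn1, the scaffold gene Rack1 and the inhibitor gene Impact did not pass, and the median of the 5 was 0.060. After the correction for GC content and length that median was -0.044.

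Genes of ribosome splitting and termination and of the quality control complex on split large subunits showed no call, with 0 of 6 and 0 of 7 past the threshold by edgeR, against 26.9% of all tested genes. Limma voom called 1 gene in each of these lists and DESeq2 none. Over all alternatives, 0 to 1 genes were called in the first list and 0 to 2 in the second. At an unadjusted p under 0.05 there was 1 in each (Etf1 and Vcp, both with lower values), against 38.4% of tested genes with an annotated length. Counts of Vcp are uncertain, since 68.2% of its 31-base stretches also occur in other annotated genes, chiefly Vcp-rs. Etf1 and Gspt1 encode the termination factors that PELO and HBS1L resemble. Etf1 had 158 ± 5.98 CPM in WT libraries, against 144 ± 3.60 CPM in knockout libraries (SD, n = 3), a log2 fold change of -0.14 with edgeR adjusted p = 0.0564. It passed in 4 alternatives, limma voom among them (adjusted p-value 0.0443), and not in the other 12. Gspt1 had 177 ± 4.23 and 170 ± 2.97 CPM (SD, n = 3), a log2 fold change of -0.057 with edgeR adjusted p = 0.415. The medians of the lists were 0.001 and 0.025.

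The list of enzymes that add ubiquitin to ribosomal proteins or remove it held the most falls. Of its 9 genes, 5 were called lower and 0 higher by edgeR, against 14.2% and 12.7% of all tested genes, and the median log2 fold change was -0.14. The ependymal markers (10 of 10 called lower, median -0.89) and the microglia markers (7 of 8, median -0.66) moved the same way, and their part in this list was not tested. The deubiquitinase gene Otud1 fell from 109 ± 4.89 to 84.5 ± 4.30 CPM (log2 fold change -0.36, edgeR adjusted p = 0.000713), and Usp21, another deubiquitinase gene, from 99.5 ± 7.92 to 81.6 ± 3.73 CPM (-0.28, 0.00774; SD, n = 3). The ligase genes Mkrn1 (-0.28), Rnf14 (-0.21) and Rnf10 (-0.14) fell too, with adjusted p-values of 0.00146, 0.0153 and 0.0463 by edgeR. Of the 31-base stretches of the longest Mkrn1 transcript, 16.3% also occur in other annotated genes, chiefly Mkrn1-ps1. Rnf10, a ligase for small subunit proteins, lost its call by DESeq2 (adjusted p-value 0.0647), with library size alone as scaling (edgeR adjusted p = 0.0532), with no filter beyond 1 count (0.0553) and in every fit that left out 1 library except the fit without WT replicate 2. Rnf14 lost its call without knockout replicate 1 (edgeR adjusted p = 0.0709) or without knockout replicate 3 (0.0616).

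Of 10 partners of the repressor and of mRNA decay, 1 was called lower, a share near the 14.2% of all tested genes, and the median log2 fold change was -0.048. Skiv2l, the helicase gene of the complex that feeds broken mRNA to the exosome, fell from 135 ± 3.42 to 121 ± 5.07 CPM (SD, n = 3; log2 fold change -0.17, edgeR adjusted p = 0.0367), and 0 of 10 were called higher. Its call was lost in each fit that left out 1 library, except the fit without WT replicate 2, with adjusted p-values of 0.0512 to 0.169 by edgeR. In this list 2 genes had every knockout library above every WT library and 2 had every one below, against 21.3% and 22.1% of tested genes. The 2 higher ones, Dcp2 (0.282) and Ttc37 (0.205), did not pass (edgeR adjusted p = 0.088 and 0.0758). Ddx6, the decapping activator that GIGYF proteins bind, had 167, 127 and 167 CPM in WT libraries, against 163, 160 and 156 CPM in knockout libraries, and WT replicate 2 alone was low. Eif4e, the initiation factor whose cap EIF4E2 competes for, had 118 ± 5.85 and 110 ± 2.61 CPM (SD, n = 3), a log2 fold change of -0.096 with edgeR adjusted p = 0.229. After the correction for GC content and length it passed, at -0.18 with edgeR adjusted p = 0.0441.

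Early response genes reported downstream of collisions were mostly higher in the knockout. Of 7 genes, 5 were called higher and 0 lower by edgeR, against 12.7% of tested genes called higher, and the median log2 fold change was 0.40. Ddit3, which encodes the stress transcription factor CHOP, rose most, with 18.7, 18.3 and 17.9 CPM in WT libraries, against 33.8, 35.1 and 34.7 CPM in knockout libraries. Its log2 fold change was 0.92 (SE 0.072, 95% interval 0.76 to 1.07) with edgeR adjusted p = 2.25e-06. Exons that overlap other gene models, among them a second model of the same symbol and Mars on the other strand, take up 20.9% of Ddit3, so its level is uncertain if strand was not used.

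Jun, whose induction on collisions has been linked to EDF1, had 58.4, 60.8 and 60.2 CPM in WT libraries, against 68.2, 76.6 and 68.4 CPM in knockout libraries. All knockout libraries were above WT, with a log2 fold change of 0.25 (edgeR adjusted p = 0.00980). Egr1 (0.60), Fos (0.41) and Ier3 (0.40) rose too, with adjusted p-values of 0.00176, 0.00988 and 0.018 by edgeR. Atf3 and Ier2 did not pass, at -0.24 and 0.004. Atf3 went the other way, with 12.5 to 13.1 CPM in WT libraries, against 10.6 to 11.4 CPM in knockout libraries (edgeR adjusted p = 0.0803). Every knockout library was thus below every WT library for Atf3, as was the case for 22.1% of tested genes. Without knockout replicate 2, Jun (0.20, edgeR adjusted p = 0.0599) and Ier3 (0.37, 0.0687) lost their calls, as did Ier3 without knockout replicate 3 (0.39, 0.0695) and Fos without knockout replicate 1 (0.32, 0.0502). The labels name no collision-inducing drug in these cultures. The fibroblast, mural and microglia marker levels also differed between the genotypes, and their part in the early response values was not tested.

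**Figure D4:**
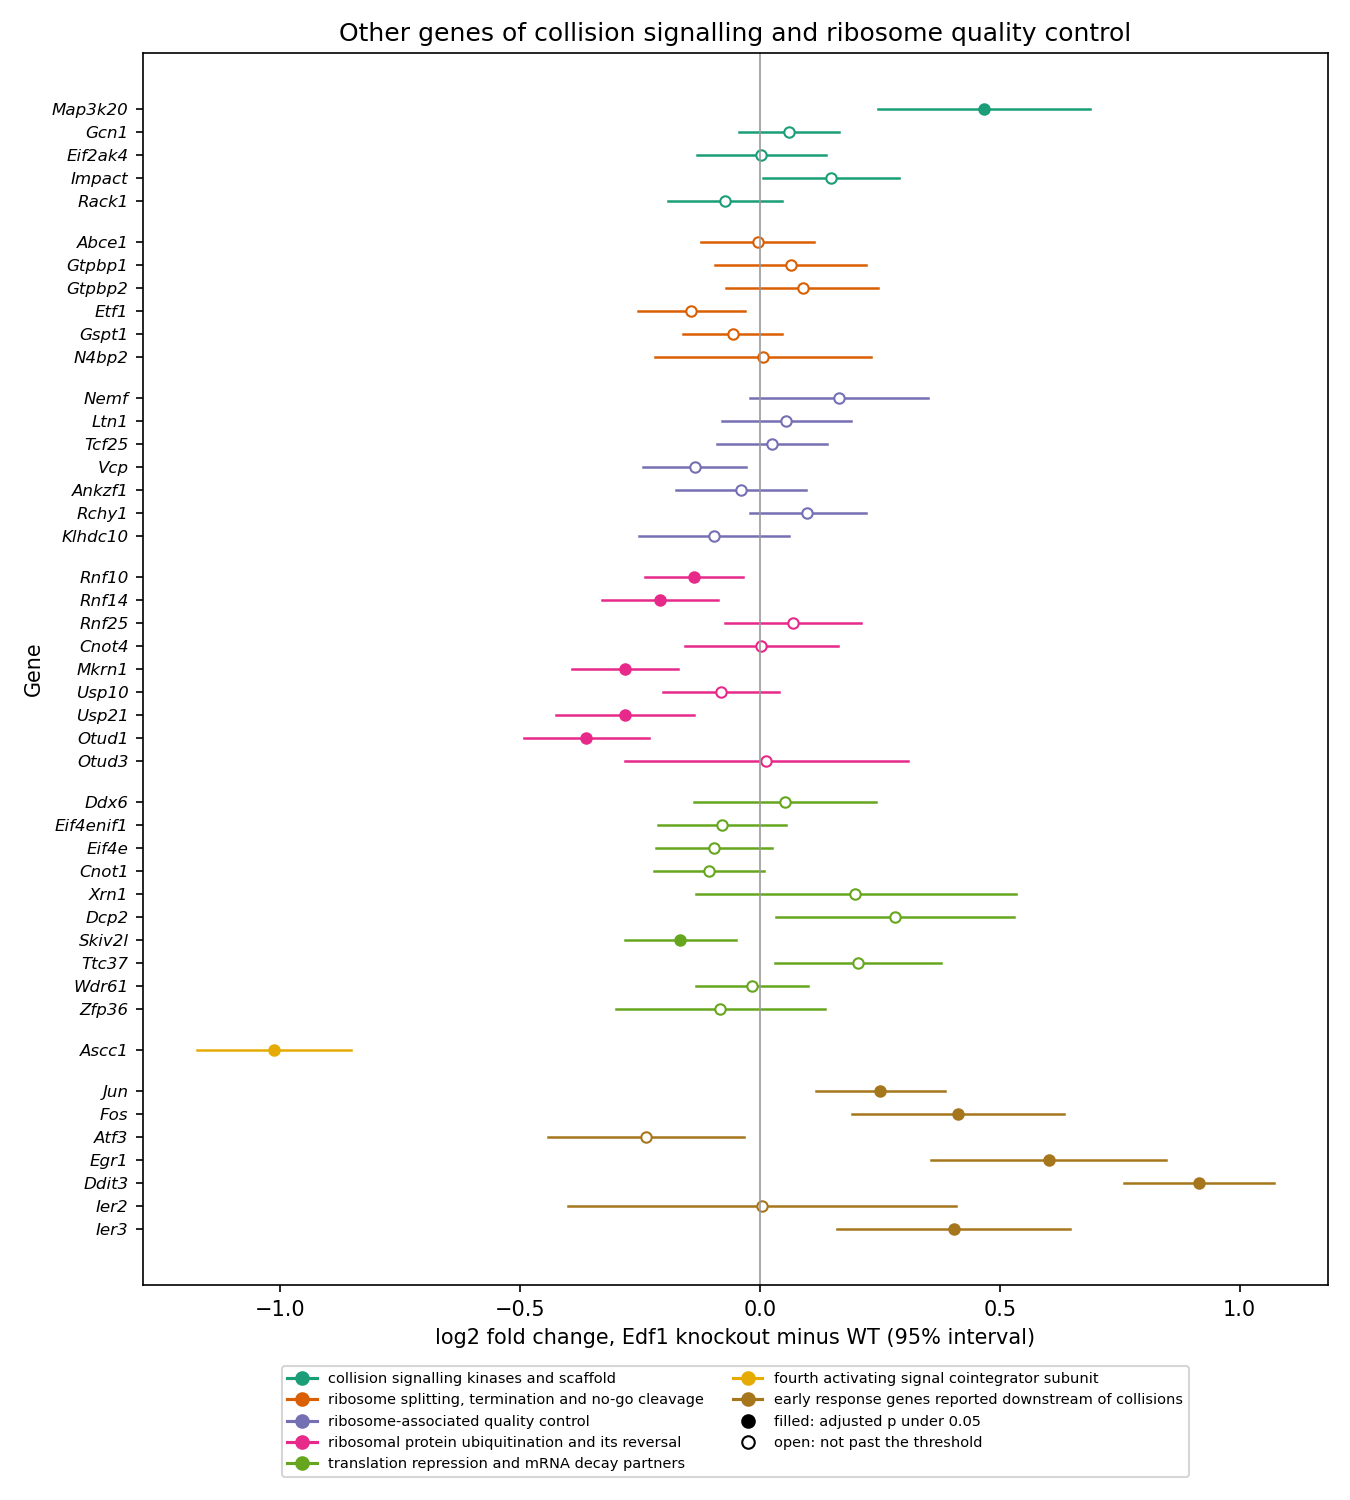
Log2 fold change of 45 further genes of collision signalling, rescue, quality control and early response, knockout minus WT, with 95% intervals; colours give the list, and filled points passed edgeR's test after adjustment. Ascc1 lies alone at -1.01, 5 of 9 ubiquitination genes are filled below 0, and 5 of 7 early response genes are filled above 0.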

How the data were processed

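Per the submitters' processing notes, FastQC 0.11.2, cutadapt 1.11 and HISAT2 2.1.0 were used with the build GRCm38. The counting program, annotation, strandedness and treatment of multi-mapped reads are not given in the sources used here. The authors deposited whole-number read counts per gene symbol, 1 column per library (unit read from the values), with 0 rows naming no gene and 0 unused columns.

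The deposited counts were read into R 4.3.3 unchanged and analysed with edgeR 4.0.16: filterByExpr, TMM factors, and the quasi-likelihood test of Edf1 KO against WT on all 6 libraries without covariates, with Benjamini-Hochberg adjustment over 14243 genes. SEs are the log2 fold change over the square root of F, and 95% intervals use the fit's degrees of freedom. Log2 CPM used a prior count of 2. DESeq2 1.42.0, limma voom (3.58.1), other scalings and filters, the replicate number as a block, a spline correction for GC content and length (4 degrees of freedom each) and leaving out each library were alternatives. The fits were also run on simulated counts with far fewer changed genes than were called here, so that run does not give error rates for these data. Positions, exon lengths and exon overlaps came from the GENCODE M21 basic annotation (GRCm38) by symbol, and longest transcripts and shared stretches from its full transcript set.

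Named genes are the 10 members, pathway genes with an adjusted p-value under 0.05, 8 pathway genes named whatever their value (Map3k20, Eif2ak4, Eif4e, Etf1, Gspt1, Ddx6, Ascc1, Jun), and the 3 genes with a mean log2 CPM of at least 1 whose profile lies nearest to that of Edf1. Some further pathway genes are named where their list is described. The members and lists were chosen with earlier results of these data known. Read ratios and neighbouring genes were added after the data were seen.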

Additional observations from a re-analysis of the deposited data

How the results depend on the processing

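Edf1 kept its fall in every alternative, from -2.99 to -2.75 on the log2 scale, and Ascc1, Ddit3, Map3k20, Egr1, Otud1, Mkrn1 and Usp21 kept direction and call in all 16. No partner of Edf1 passed in any alternative except Trip4. The correction for GC content and length gave Trip4 at -0.23 and 2 called members (Edf1 and Trip4), alone and together with the replicate block (-0.23 and 2). Without WT replicate 2, Trip4 also passed, and fits leaving out 1 library gave Trip4 from -0.16 to -0.11 and 1 to 2 called members. Under the correction Zfp598 (-0.036), Ascc3 (-0.016), Ddx6 (-0.029) and Eif2ak4 (-0.044) turned negative, as with the block added (-0.037, -0.019, -0.025 and -0.043), and Eif2ak4 by limma voom (-0.003). In fits leaving out 1 library, Eif4e2 ran from -0.016 to 0.054, Zfp598 from -0.032 to 0.035, Eif2ak4 from -0.026 to 0.029 and Ddx6 from -0.067 to 0.12. The read ratios on the log2 scale ran from -0.041 to 0.099 for Gigyf1 to Gigyf2, -0.009 to 0.185 for Gigyf2 to Eif4e2 and -0.093 to 0.021 for Pelo to Hbs1l. The median of the signalling list (0.060) was -0.044 under the correction and -0.043 with the block added. Gigyf2 ran from 0.045 to 0.167 and Ascc3 from 0.028 to 0.187 in fits leaving out 1 library. The cause was not tested.

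Counts of called pathway genes moved by more than 1.5 times as follows. Quality control on split subunits (0 called) had 1 with no filter, by limma voom and with the replicate block, and 2 under the correction with or without the block. Ribosome splitting (0) had 1 by limma voom and 1 under the correction, with or without the block. Repression and decay (1) had 3 with the replicate block, 3 under the correction with or without it, and 0 at an adjusted p-value under 0.01. Ubiquitination (5) had 3 at that threshold. Its change to 4 with library size alone, with no filter and by DESeq2 was under 1.5 times. Fits leaving out 1 library gave 1 to 2 for signalling, 0 to 1 for splitting, 0 to 2 for quality control, 3 to 5 for ubiquitination, 0 to 2 for repression and 3 to 5 for early response. The threshold of 0.01 left 2213 changed genes in place of 3833.

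The replicate block alone changed the call of no member (Trip4 at -0.13, Edf1 at -2.85) and gave 4065 changed genes. Deviations of same-numbered libraries correlated at 0.069, 0.060 and 0.037. Each library correlated best with its own number, a hint from the data and not the design, so no pairing was assumed. With 3 libraries a group, the 95% interval of each partner gives the precision of its comparison.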

Other observations

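The genes next to Edf1 on chromosome 2 were examined after the data were seen. Of 6 other genes of the table within 50 kb of Edf1, 2 passed edgeR's test after adjustment, against 26.9% of tested genes. Mamdc4, which is transcribed toward Edf1 and ends 1.03 kb beyond it, had 2.49, 1.55 and 2.0 CPM in WT libraries, against 5.10, 3.73 and 5.52 CPM in knockout libraries. All knockout libraries were above WT, with a log2 fold change of 1.21 (SE 0.22, edgeR adjusted p = 0.00152), and this call held in all alternatives (1.08 to 1.42). These are low levels, of 20 to 156 counts per library. Phpt1, which encodes a protein histidine phosphatase and overlaps Mamdc4, fell from 90.9 to 99.2 CPM in the WT libraries to 73.9 to 79.8 CPM in the knockout libraries (log2 fold change -0.29, edgeR adjusted p = 0.00259). Traf2, Ajm1, Rabl6 and Ccdc183 did not pass. Whether the edit at Edf1 bears on these values was not tested.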
